A study of Rattus norvegicus with 2 samples.

Results

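The genes described here are 9 markers of lymphocytes and their receptors, out of 13435 genes that the array's probes could be named for: Cd2, Cd3d, Cd3e, Cd3g, Cd4, Cd8a and Lck for T cells, Cd79b for B cells, and Ptprc, which marks all leukocytes. They were chosen by name, and their probes were found by the transcript accession of each non-control spot, which gave 11 probes for the 9 genes. Each gene has 1 probe except Ptprc, which has 3. Kidney RNA came from female PCK rats, a strain that carries a Pkhd1 mutation and models autosomal recessive polycystic kidney disease. The treated animals were gavaged daily with pioglitazone, a PPAR-gamma agonist, at 10 mg/kg from 4 to 20 weeks of age, and the control animals were PCK females gavaged with vehicle containing 0.5% DMSO over the same ages. Every animal was therefore cystic. The RNA of each group was pooled and hybridised with Cy3 to 1 array, so there are 2 arrays in all and no replicate. The pool is given as 5 females per group in one place of the labels and as 3 rats in another. Wild-type rats are named in the treatment text and are not analysed here.

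The T cell receptor has no signalling tail of its own and relies on the CD3 chains, whose cytoplasmic tails are phosphorylated by the kinase LCK when the receptor is engaged. LCK is brought to the complex by the coreceptors CD4 and CD8, and is kept ready for activation by the phosphatase CD45, the product of Ptprc. B cells use the pair CD79A and CD79B in the same role. In polycystic kidneys mononuclear cells collect in the interstitium around the cysts, and lymphocytes are a small part of the RNA of a whole kidney. Fewer lymphocytes and less RNA per lymphocyte cannot be told apart in such bulk RNA.

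Cd3g, Cd3d and Cd3e are neighbours on one chromosome, and Cd2 lies on another. The 250 bases before the start of these 4 genes are printed below. They were picked because the first 3 encode chains of one complex and Cd2 had the largest difference of the 9 at their brightest probes. The sequences are those of RefSeq for GRCr8, which holds such an entry for 7 of the 9 genes, all but Cd4 and Cd79b. They are written 5′ to 3′ in the direction of transcription, and capitals mark matches on either strand to AGGAAG (the ETS core with one flanking base on each side), TGTGGT (RUNX) or GGGCGG (Sp1).
Cd3g, GRCr8 chr8:54183919-54184168, minus strand: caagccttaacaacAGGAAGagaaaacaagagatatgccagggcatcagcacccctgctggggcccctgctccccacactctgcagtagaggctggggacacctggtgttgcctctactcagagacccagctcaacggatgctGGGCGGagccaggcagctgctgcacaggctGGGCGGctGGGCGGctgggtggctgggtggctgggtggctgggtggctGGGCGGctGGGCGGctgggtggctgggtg
Cd3d, GRCr8 chr8:54185269-54185518, plus strand: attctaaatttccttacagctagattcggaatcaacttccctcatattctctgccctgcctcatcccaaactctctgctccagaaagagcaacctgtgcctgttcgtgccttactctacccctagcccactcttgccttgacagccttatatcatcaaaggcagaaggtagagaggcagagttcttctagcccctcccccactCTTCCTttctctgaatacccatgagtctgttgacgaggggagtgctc
Cd3e, GRCr8 chr8:54211771-54212020, minus strand: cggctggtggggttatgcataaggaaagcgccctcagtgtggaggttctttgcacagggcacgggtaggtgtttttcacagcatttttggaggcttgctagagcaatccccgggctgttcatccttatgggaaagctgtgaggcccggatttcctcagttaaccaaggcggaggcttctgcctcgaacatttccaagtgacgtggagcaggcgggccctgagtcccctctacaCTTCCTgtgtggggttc
Cd2, GRCr8 chr2:191412660-191412909, minus strand: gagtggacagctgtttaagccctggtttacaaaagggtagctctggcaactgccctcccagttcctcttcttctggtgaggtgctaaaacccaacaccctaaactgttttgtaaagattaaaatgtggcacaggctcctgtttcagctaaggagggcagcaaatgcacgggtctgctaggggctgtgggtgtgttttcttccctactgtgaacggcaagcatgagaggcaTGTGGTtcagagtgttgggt
The ETS letters occurred once in each of the 3 CD3 windows, and in 29.5% of all 33469 RefSeq promoter windows of 250 bases. The window of Cd2 held 1 match to the RUNX letters, which 14.5% of all windows held. Cd3g alone among these 4 had the Sp1 letters, in 5 copies within a run of near-repeats, and 30.5% of all windows held at least 1 copy. No match overlapped a match to another motif. These are matches of letters and not shown binding sites.

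The signal of a spot is the processed intensity deposited by the authors, on a linear scale in arbitrary units, and the error beside it is the scanner software's own error for that spot. The lowest signal that the software called well above background was 7.66 on the vehicle array and 7.16 on the pioglitazone array. Of 43379 non-control spots, 71.8% and 73.1% were well above background and none was saturated. All 9 genes were well above background on both arrays at their brightest probe, and 10 of the 11 probes were. A difference is pioglitazone minus vehicle on the log2 scale, after each array was scaled to its 75th percentile, which subtracted 0.08 from the raw difference. It is set against 2 technical errors, the combined software error of the 2 spots, which contains no spread between animals. A gene was counted as lower when the difference reached 1.5-fold and exceeded 2 technical errors. With 1 array per group there is no test, and the number of arrays limits the precision.

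All 9 lymphocyte genes, each at its brightest probe, had lower scaled signal in the pioglitazone pool. The differences lay between -0.88 for Cd2 and -0.05 for Lck, although without scaling Lck was at 0.03 and Ptprc at 0.00. The median of the 9 was -0.30, and the median over 10480 measured genes was 0.03. Of all measured genes 43.8% had a difference below 0, and 28.3% without scaling, which is the share to set beside the unscaled counts below. At these probes only Cd2 met the criterion for lower, 1 of 9 genes, where 1.76% of all measured genes met it and 0.754% met its counterpart for higher. Ptprc met it at a dimmer probe (A_44_P414258, -0.96) but not at its brightest, which the count uses. No member was higher. At 1.5-fold with no limit on the error the count was also 1, against 1.87% of all measured genes, and at 2-fold it was 0, against 0.296%. The 5 members with signals below 50 on both arrays were among those below 0, as were 53% of the 1872 measured genes that dim. Cd3g also exceeded 2 technical errors but missed 1.5-fold. The other 7 genes lay within 2 technical errors of 0 at their brightest probes, so their direction is not resolved gene by gene.

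**Figure D1:**
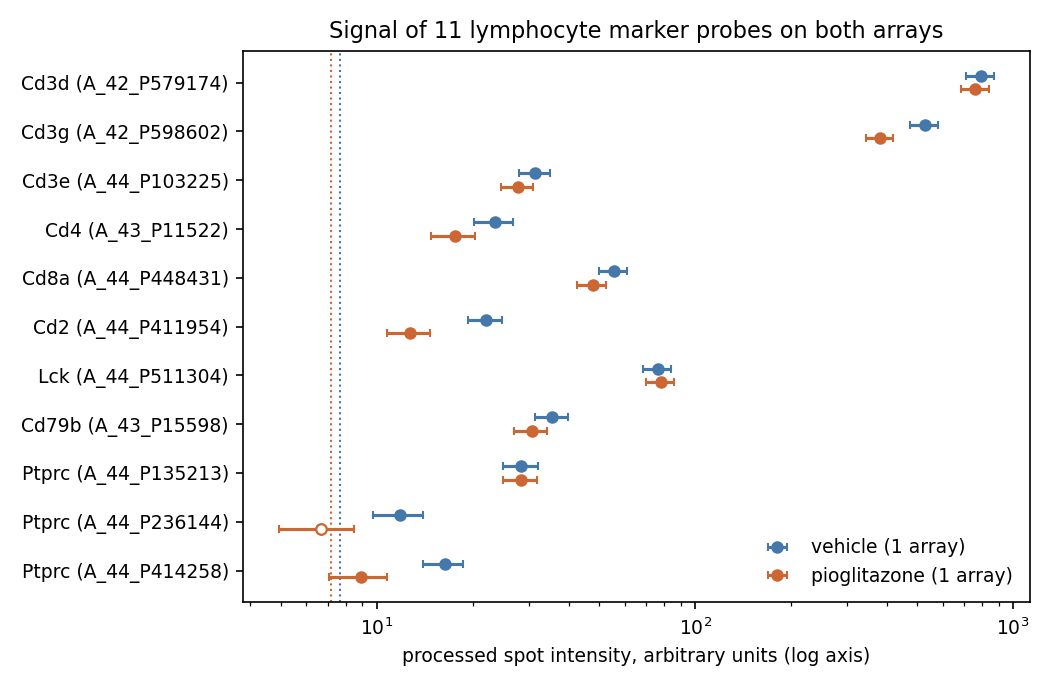
Processed intensity of the 11 probes on the vehicle array and the pioglitazone array, on a log axis; bars are the software's error of the spot and dotted lines the lowest signal well above background on each array. The open point is the probe of Ptprc not well above background with pioglitazone. The Cd3d and Cd3g probes lie far to the right of the others, and most of the rest lie within a few-fold of the dotted lines.

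The CD3 chains gamma, delta and epsilon form the signalling part of the T cell receptor. Cd3g (probe A_42_P598602) gave 527 ± 52.7 with vehicle and 382 ± 38.2 with pioglitazone. The error bars of the 2 spots do not overlap, and both signals are over 50 times the lowest signal well above background on their array. The difference was -0.55 with a technical error of 0.20, a 1.46-fold lower signal. Taken as raw signal minus local background it was -0.69, which met the criterion that Cd2 then missed. Cd3d (A_42_P579174) gave 791 ± 79.1 and 761 ± 76.1, almost the same signal on both arrays, and a difference of -0.14 against 2 technical errors of 0.41. Cd3e (A_44_P103225) gave 31.4 ± 3.54 and 27.7 ± 3.15, with overlapping errors and a difference of -0.26 against 0.46. The difference of Cd3g was 0.41 below that of Cd3d, which is within 2 combined technical errors (0.58). The 3 chains were thus not resolved from each other, although 1 had a difference beyond its own errors. Signals of different probes are not compared as levels, because probes differ in their affinity.

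The median spread of replicate spots was smaller than the median technical error at these signals, but the largest spread among dim probes exceeded it. Over 49 probes printed 10 times with vehicle signals between 300 and 1000, the SD of the difference between arrays had a median of 0.06. The largest SD there was 0.11. Over 17 such probes with vehicle signals below 30, in the range of Cd2, Cd4 and Ptprc, the median was 0.23 and the largest 0.53. The technical error had medians of 0.20 and 0.28 in these classes. The bright Cd3g probe was therefore read more precisely than the dim probes described next. Each of the 11 probes was printed once, so no replicate spot exists for the lymphocyte genes themselves.

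Cd2 encodes an adhesion and costimulatory receptor of T cells and NK cells that binds CD48 in rodents. Its probe (A_44_P411954) gave 22.0 ± 2.70 with vehicle and 12.7 ± 1.94 with pioglitazone. The errors do not overlap, and the signals are 2.87 and 1.77 times the lowest signal well above background. Of 153 negative control spots on the pioglitazone array 1, at 16.2, was itself called well above background and was brighter than Cd2 there. The difference was -0.88 with a technical error of 0.28, a 1.83-fold lower signal. Among the genes with signals below 50 on both arrays, 4.7% met the same criterion for lower and 2.19% for higher. The raw spot signal was 56.0 over a local background of 23.0 with vehicle, and 41.0 over 16.0 with pioglitazone. Taken as raw signal minus local background, the difference was -0.49 and no longer met the criterion. The spot lies in the middle rows of the array's grid (bands 6 and 7 when the rows are cut into 10 bands), where 19.9% of measured genes and 33.3% of those with a 2-fold difference were printed. Cd3e lies there too. The part of grid position and background in the difference of Cd2 was not tested. Cd48, its ligand on other leukocytes, was at 269 and 257, a difference of -0.15 within 2 technical errors.

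The coreceptors CD4 and CD8 bind MHC class II and class I and mark helper and cytotoxic T cells. In rats CD4 is also carried by macrophages and CD8 by NK cells. Cd4 (A_43_P11522) gave 23.5 ± 3.35 and 17.6 ± 2.78, with slightly overlapping errors. Its difference of -0.50 was smaller than 2 technical errors (0.61), and raw signal minus local background gave -0.16. Cd8a (A_44_P448431) gave 55.5 ± 5.80 and 47.6 ± 5.01, a difference of -0.30 against 0.43. The difference of Cd4 was 0.20 below that of Cd8a, within 2 combined errors of 0.75, so no shift between helper and cytotoxic markers was detectable. The beta chain Cd8b, which confines CD8 to T cells more closely, was at 107 and 96.4 with a difference of -0.23 within its errors.

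Lck encodes the kinase that starts T cell receptor signalling. Its probe (A_44_P511304) gave 76.2 ± 7.80 and 78.0 ± 7.95, and the pioglitazone signal was the higher one before scaling. After scaling the difference was -0.05, the smallest of the 9, and over 6 scalings it ran from -0.06 to 0.03 with both signs. The difference of Cd2 was 0.83 below that of Lck, beyond 2 combined technical errors of 0.70. Of 36 pairs among the 9 genes, 3 differed by more than 2 combined errors, each of them Cd2 against another gene, namely Lck, Ptprc at its brightest probe and Cd3d. With raw signal minus local background Cd2 was at -0.49 and Lck at 0.02, no longer separated, and 1 pair of the 36 was beyond its errors, as with normexp correction. Without the middle grid rows 7 of the 9 genes were measured and 0 pairs were beyond their errors. No neighbours in the order of the differences (Cd2, Cd3g, Cd4, Cd8a, Cd79b, Cd3e, Cd3d, Ptprc, Lck) were separated in this way.

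Cd79b encodes the beta chain of the B cell receptor's signalling pair and is the B cell gene among the 9. Its probe (A_43_P15598) gave 35.6 ± 4.21 with vehicle and 30.6 ± 3.67 with pioglitazone, with overlapping errors. The difference of -0.30 was within 2 technical errors of 0.49. It equals the median of the 7 T cell genes, -0.30, to 2 decimals, and lies inside their range. Its difference was within 2 combined technical errors of that of each T cell gene, which does not show that B and T cell genes behaved alike.

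The 3 probes of Ptprc gave different values, but their ranges of 2 technical errors overlap, so they were not resolved from each other. The brightest (A_44_P135213) gave 28.4 ± 3.56 and 28.4 ± 3.44, the same signal on both arrays and a scaled difference of -0.08. Another probe (A_44_P414258) gave 16.3 ± 2.39 and 8.90 ± 1.83, a difference of -0.96 beyond its 2 technical errors of 0.73. That probe met the criterion for lower, but it does not enter the count because it is not the brightest. The dimmest (A_44_P236144) gave 11.8 ± 2.11 with vehicle and 6.68 ± 1.76 with pioglitazone, where it was not well above background. Its difference of -0.90 was within 2 technical errors of 0.92. Its vehicle signal was 1.74-fold above the lowest signal well above background on the pioglitazone array after scaling, a value without an error of its own. In the array's annotation the 2 dimmer probes share one transcript accession and the brightest carries that of another Ptprc transcript. Ptprc is spliced differently in different leukocytes, and which exons each probe covers is not given in the sources used here. The raw signal of A_44_P414258 was 42.5 over a local background of 20.0 with vehicle and 34.5 over 19.0 with pioglitazone. That of A_44_P236144 was 38.5 over 19.0 and 31.0 over 16.0. With the mean over the 2 measured probes in place of the brightest, Ptprc was at -0.52.

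**Figure D2:**
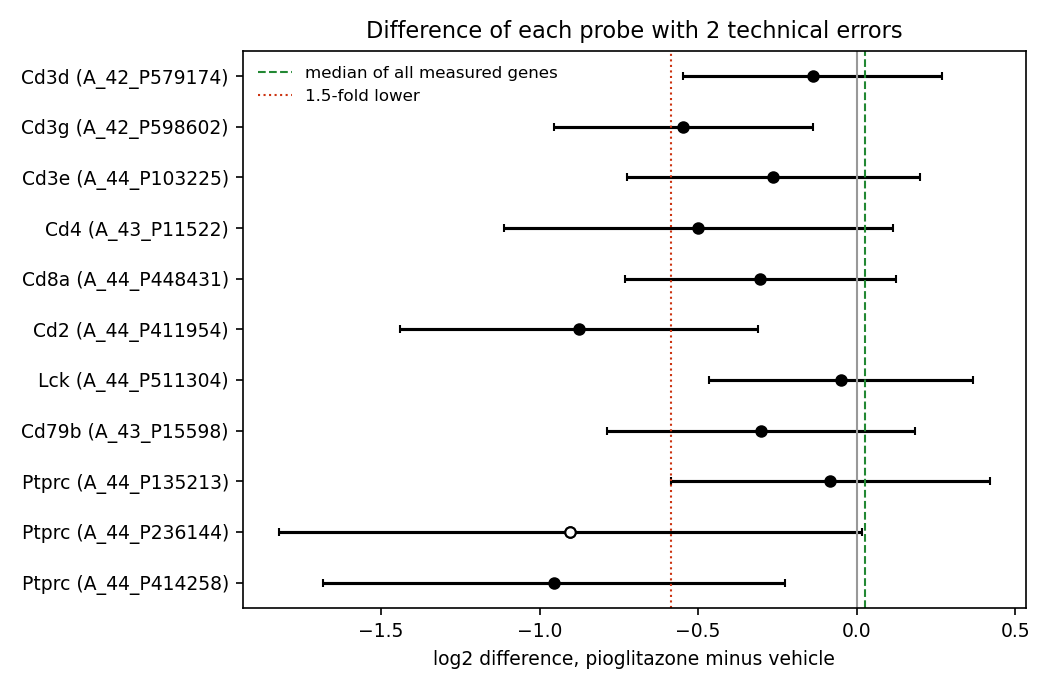
Log2 difference, pioglitazone minus vehicle, of the 11 probes after scaling to the 75th percentile; bars are 2 technical errors, the dashed line the median of all measured genes (0.03) and the dotted line 1.5-fold lower. With this scaling all 11 points lie below 0, and the bars of Cd2, Cd3g and the Ptprc probe A_44_P414258 stay clear of it.

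**Figure D3:**
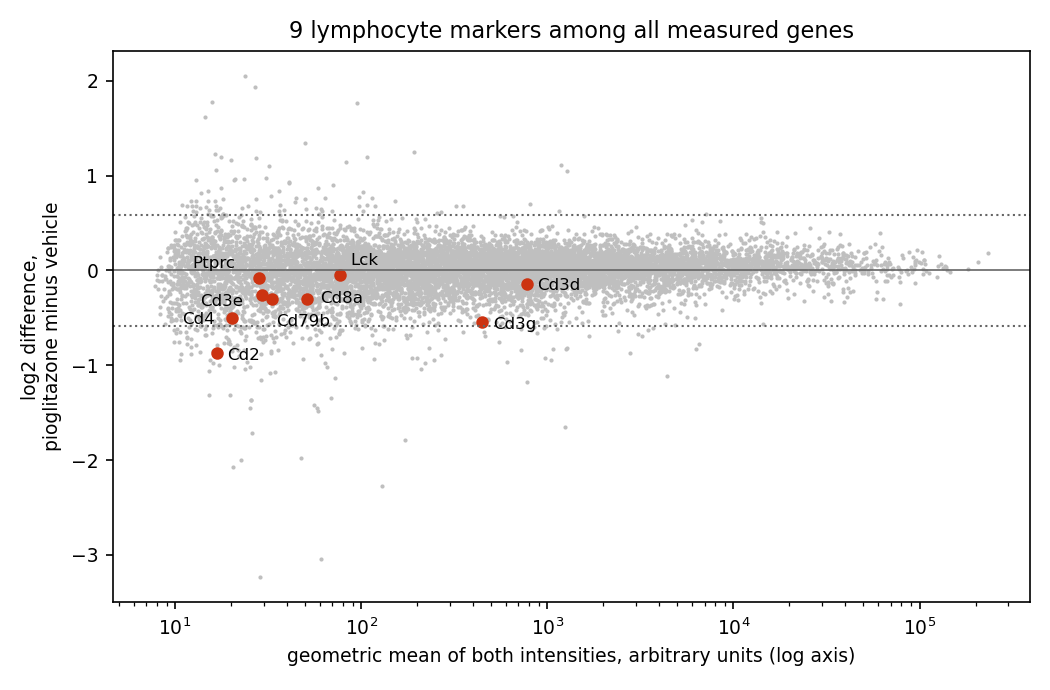
Log2 difference against the geometric mean of both intensities (log axis) for 10480 measured genes in grey and the 9 lymphocyte genes in red; dotted lines mark 1.5-fold. The spread of all genes widens towards low signal, where 5 of the 9 genes have signals below 50 on both arrays, and Cd3g lies at the lower edge of a narrower band.

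The wider T cell lists hold 51 genes of the receptor complex, coreceptors, signalling and transcription factors, 8 of the 9 genes among them. Probes named 39 of them and 31 were measured on both arrays. Of these 31, 25 were below 0 (18 without scaling), 1 was lower (Cd2) and 0 were higher, with a median of -0.14. Without the 9 genes, 17 of 23 were below 0 with a median of -0.12. The 8 genes with a probe that were well above background on neither array include the zeta chain Cd247, the costimulatory receptor Cd28, the CD40 ligand Cd40lg, the checkpoint receptors Pdcd1 and Lag3, and the transcription factor Lef1. Bcl11b, Tcf7 and Themis, which also define T cells, had no named probe.

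Receptor signalling genes lay close together. Of 14 measured, 13 were below 0 (8 without scaling), none was lower or higher by the criterion, and the median was -0.12. The exchange factor Vav1 was at 92.1 and 74.5, a difference of -0.39. It was followed by the phosphatase Ptpn22 at -0.37 and the kinase Zap70, which binds phosphorylated CD3, at -0.24, all within 2 technical errors. The adaptor Lat, at 148 and 154, had a difference of -0.03, as near to 0 as Lck. The brightest genes of the list, Csk, Bcl10 and Plcg1, are expressed in many cell types and were at -0.13, -0.06 and 0.15.

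Among 10 measured coreceptors and costimulators 8 were below 0 (6 without scaling), with a median of -0.20. Besides Cd2, Cd4 and Cd8a, the inhibitory receptor Cd5 was at 29.8 and 24.6, a difference of -0.36. The brightest were Cd6 at 1120 and 1130 (-0.07) and Tnfrsf4, which encodes OX40, at 1060 and 1330 (0.24). The checkpoint receptor Ctla4 was at 45.6 and 55.4, a difference of 0.20 in the other direction from the CD3 genes but within 2 technical errors. Of 4 measured transcription factors, Gata3, also a kidney epithelial gene, was at 197 and 155 (-0.43, beyond 2 errors of 0.41 only after scaling). The others were Runx3 (273 and 374, 0.37), the regulatory T cell factor Foxp3 (9.10 and 12.0, 0.32) and Tbx21 (11.9 and 15.0, 0.25). The median of the 4 was 0.28. It turned to -0.03 when genes within 2 times the lowest signal well above background were left out, and to -0.05 with normexp correction of the background.

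The B cell list holds 20 genes, of which 14 had a named probe and 10 were measured. Of these 9 were below 0 (8 without scaling), none was lower or higher by the criterion, and the median was -0.24. Cd22, an inhibitory receptor of B cells, was at 60.6 and 45.7, a difference of -0.49 beyond 2 technical errors of 0.43. Without scaling Cd22 was within them. Fcrla was at -0.39, the coactivator Pou2af1 at 722 and 600 (-0.35) and the kinase Btk, which myeloid cells also express, at -0.34, all within their errors. Blnk, the brightest B cell list gene, was at 1080 and 1070 (-0.10). The B cell genes Cr2, Blk and Bank1 were not well above background on either array, and Ms4a1, Cd79a and Pax5 had no named probe. The T cell lists' median was 0.10 above that of the B cell list, and over 13 alternative settings this gap ran from 0.01 to 0.16. The gap has no error of its own on 2 arrays, so it shows neither a difference nor a likeness of T and B cell genes.

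Plasma cell, NK and homing genes were read beside these. Of 5 measured plasma cell list genes 2 were below 0, with a median of 0.09, led by Derl3 (33.8 and 47.2, 0.40). This median was -0.08 with normexp correction, -0.05 with raw signal minus local background and -0.03 without the middle grid rows. Of 11 measured NK and cytotoxic genes 10 were below 0 (7 without scaling), with a median of -0.14. Granzyme B (Gzmb) was at 38.5 and 29.2, a difference of -0.48 beyond 2 errors of 0.46 only after scaling. Perforin (Prf1) was at -0.17 and Gzma at -0.14. Of 12 measured homing and cytokine genes 10 were below 0 (9 without scaling), with a median of -0.26. The B cell attractant Cxcl13 was at 304 and 236 (-0.45, beyond 2 errors of 0.41 only after scaling). Lymphotoxin beta (Ltb) was at 963 and 795 (-0.36), and the T cell zone chemokines Ccl21 and Ccl19 were at -0.39 and -0.27. Their receptor Ccr7 was at 12.9 and 21.2, a difference of 0.63 within 2 errors of 0.64. Ccr6 (8.98 and 5.40) and Il7 (11.5 and 8.12) were well above background with vehicle alone. Klrk1 (8.26 and 8.12, -0.11) and Tnfrsf17 (7.89 and 8.60, 0.04) were so with pioglitazone alone, although each had nearly the same signal on both arrays. The differences of Ccr6 (-0.82) and Il7 (-0.58) were within 2 technical errors of 1.04 and 0.88.

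**Figure D4:**
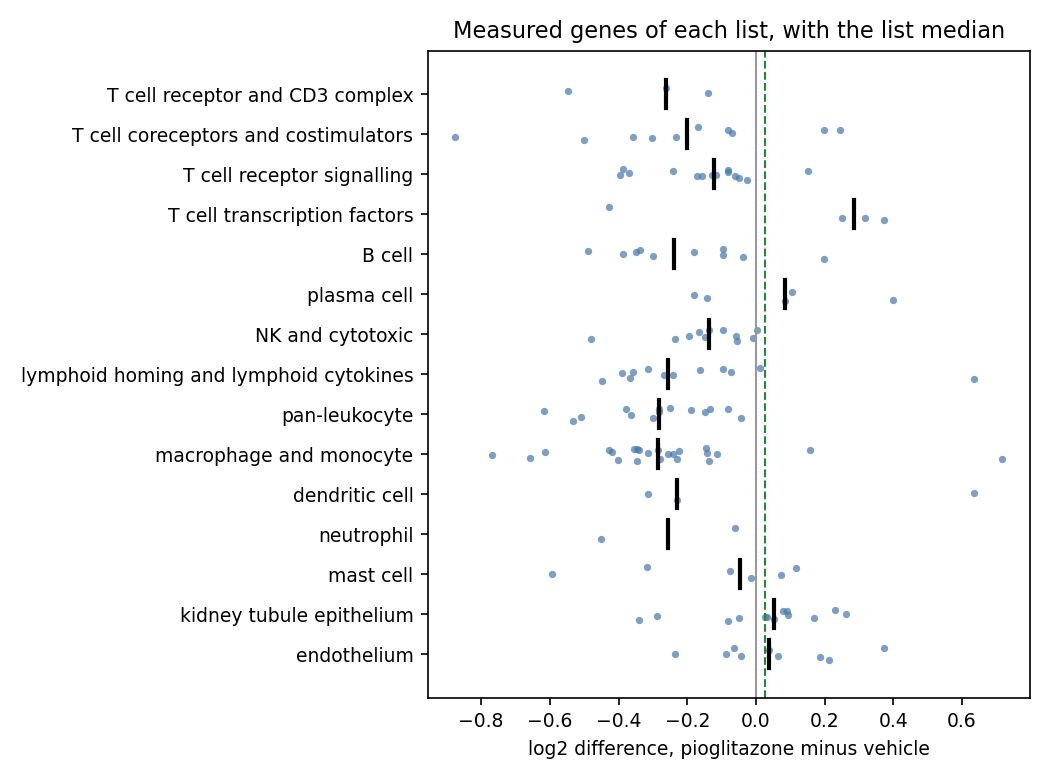
Log2 difference of each measured gene, pioglitazone minus vehicle, in 15 lists, with black bars for list medians and the dashed line for the median of all measured genes (0.03). The T cell receptor complex, B cell, pan-leukocyte and macrophage lists lie mostly left of 0, and kidney tubule and endothelial genes lie around it.

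Markers of leukocytes in general and of macrophages mostly had differences below 0 as well, although few met the criterion. Of 14 measured pan-leukocyte genes 14 were below 0 (12 without scaling), with a median of -0.28 and a summed signal of 16678 with vehicle and 14690 with pioglitazone, before scaling. The sums of the T cell lists were 14956 and 14938 and those of the B cell list 2350.3 and 2193. The brightest probes weigh most in such sums. In the T cell lists these were Csk (5310 and 5150) and Bcl10 (3230 and 3280), which are expressed in many cell types. In the B cell list they were Blnk (1080 and 1070) and Pou2af1 (722 and 600). Within the T cell lists, the coreceptor and costimulator sums were 2709 and 2946, higher with pioglitazone. That list holds Tnfrsf4 at 1060 and 1330, while 8 of its 10 measured genes were below 0 (6 without scaling). Of the pan-leukocyte genes, Cd52 was lower (178 and 123, -0.62), and Itgb2 (-0.53) and Lcp1 (-0.51) exceeded 2 technical errors. Of 23 measured macrophage and monocyte genes 21 were below 0 with and without scaling, with a median of -0.29 and sums of 43580 and 38629. Of these genes 3 were lower (Itgam at -0.77, Trem2 at -0.66 and Gpnmb at -0.62) and 1 was higher (Cd86, 33.6 and 58.5, 0.72). Cd163 on that list was not well above background on either array. Without scaling, Itgam and Cd86 still met the criterion, but Trem2, Gpnmb and the pan-leukocyte gene Cd52 no longer reached 1.5-fold. Kidney tubule genes had a median of 0.05 over 13 (-0.003 with cyclic loess) and endothelial genes 0.04 over 9. The part of macrophages in the differences of Cd4 and Ptprc, which they also express, was not tested.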

How the data were processed

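Kidney RNA of PCK rats was measured on 1 Agilent array per treatment. The deposited intensity values came from Agilent Feature Extraction 10.7.3.1, per the file headers, with background and spatial trends removed within each array and the arrays not scaled to each other. The value table held the same intensity at all 45018 features of each array, with medians of 46.8 and 47.7, so it has no log scale or centring.

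From these files, signals were taken to log2 after 149 spots with outlier flags had been dropped, and the 75th percentile of the array was taken off. Spots of a probe were averaged. Accessions named 16959 of 40998 probes through RefSeq's GRCr8 gene table, none with several symbols. The files' build is rn4, and their own gene coordinates are not given. The coordinates printed with the 4 promoter sequences are those of GRCr8. A gene took its brightest probe and counted as measured if both arrays had it well above background. Technical errors of replicate spots were averaged, not reduced for their number. No p-value was computed. The calling step was run on simulated data whose noise was smaller than the technical error, so that run gives no error rate for these arrays. Python 3.11.15 and limma 3.58.1 were used. The text names the 9 genes with all probes and, per list, up to 4 genes with the largest difference, up to 3 of the brightest and those seen on 1 array alone; further genes, such as Cd48, Cd8b, Zap70 and the genes not detected, were named after their values were seen. A few listed genes are not reported here. The genes and lists were chosen with earlier results of these data known. Alternatives were other scalings, background corrections, flags, probe rules, filters and grid rows.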

Additional observations from a re-analysis of the deposited data

How the results depend on the processing

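The count of 1 lower gene among the 9 was 1 under the 5 other scalings, with flagged spots included, with probes averaged, with no filter on dim probes and at 1.5-fold with no limit on the error, and the gene was Cd2. It was 0 with both arrays above 2 times the lowest signal well above background and 0 without the middle grid rows, because Cd2 is removed by both, and 0 at 2-fold. With normexp correction (offset 50) and with raw signal minus local background it was 1, but the gene was Cd3g (-0.62 and -0.69) and Cd2 was at -0.26 and -0.49. With the background-subtracted signal before the software's own adjustment it was 2, Cd2 and Cd3g. This setting and the local background were chosen after seeing the data, the error was not recomputed for changed backgrounds, and the cause was not tested. Without scaling 7 of the 9 were below 0, with Lck above and Ptprc at 0, and the median of all genes was 0.11. The median of the 9 ran from -0.31 to -0.14, that of the T cell lists from -0.17 to -0.06 and that of the B cell list from -0.30 to -0.14 over 13 alternatives. Low signal limits Cd2, Cd4 and Ptprc. No paired analysis was possible because there are no replicate numbers to pair, with 1 array a group.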

Other observations

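Genes of rarer leukocytes outside the comparisons above were read on the same arrays. Of 6 measured mast cell genes 4 were below 0, with a median of -0.05 (0.04 without scaling). The chymase Cma1 was at 53.6 with vehicle and 37.6 with pioglitazone, a difference of -0.59 beyond 2 technical errors of 0.43, while the tryptase Tpsab1 was at 2090 and 2100 (-0.08). Cpa3, Fcer1a and Ms4a2, which define mast cells, were not well above background on either array. Of 10 dendritic cell genes 3 were measured, Cd83 (-0.31), Batf3 (-0.23) and Ccr7. Of 9 neutrophil genes with a probe 2 were measured, S100a8 at 38.6 and 29.9 (-0.45) and S100a9 at 37.8 and 38.4 (-0.06). Ngp (1.77 and 9.22) and Csf3r (5.48 and 8.13) were well above background with pioglitazone alone. Their differences of 2.30 and 0.49 were within 2 technical errors of 2.94 and 1.10.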
